A study of Hippoglossus hippoglossus with 15 samples.

Results

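The period between the 10-somite stage and hatching in high quality Atlantic halibut (Hippoglossus hippoglossus) embryos was examined by comparing hatched embryos with embryos carrying 10 somites. The arrays were chosen by their labels alone and comprise 3 arrays of high quality hatched embryos (HT, 340 hours post fertilisation, hpf) and 3 arrays of high quality 10-somite embryos (10SS, 142 hpf), 6 of the 15 arrays of the series. The other arrays hold high quality embryos at the 8-cell stage (8CS, 8 hpf) and the germ ring stage (GR, 82 hpf) and low quality 8CS embryos. The study profiled transcripts during embryonic development and asked which of them relate to embryo quality. All embryos of both stages came from farmed fish, with no strain or treatment named in the labels, from eggs of several females fertilised with pooled sperm, and high quality refers in the study to egg batches with high hatching success. Whole embryos were frozen and each array held total RNA of a batch according to the methods, so that a change in the number of cells of a type and a change in RNA per cell cannot be told apart. Whether same-stage batches came from different females was not given in the sources used here. The p-values measure only the spread between these batches.

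In teleosts, the 10-somite embryo has a body axis with the first blocks of future muscle and nervous system, and most organs are not yet present. During the time up to hatching the heart starts to beat, muscle fibres become contractile, eyes and ears form, and gland cells in the skin release the enzymes that open the egg envelope. Transcripts of the innate immune system, which acts without prior exposure to a pathogen, are of particular interest here, because the hatchling leaves the egg envelope before its lymphoid organs are fully developed.

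The value of a transcript is called its level and is the log2 processed signal of its probe relative to the 75th percentile of the array, averaged over the spots of the probe. A difference is the HT minus the 10SS mean of such levels. Probes count as detected on an array where the extraction software marked over 0.5 of their spots as well above background. A fold is given only for probes detected on all 3 arrays of the brighter stage. If detection failed on any array of the dimmer stage, the fold is a lower bound ("at least"), in which each dim array enters with its own value or with the weakest detected signal on that array, whichever is higher. A transcript was called when its Benjamini-Hochberg adjusted p in limma, fitted to all 12 high quality arrays, was under 0.05 and its difference was at least 2-fold.

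The 10SS arrays were not alike. Across the 9283 probes kept for testing, 10SS replicates 1 and 2 correlated at 0.991, whereas the array labelled 10SS replicate 3 correlated with them at 0.822 and 0.824 and with the 3 GR arrays at 0.928 to 0.936. For comparison, 10SS replicate 1 correlated with GR at 0.744 to 0.76 and with HT at 0.945 to 0.949, and 10SS replicate 3 with HT at 0.749 to 0.751. These correlations run across probes of a common array, and probes are not independent replicates. 10SS replicate 3 lay at least 4-fold below the mean of the other two 10SS arrays for 1007 probes and at least 4-fold above it for 670, while replicates 1 and 2 were that far apart for 57. The median SD between arrays was 0.601 at 10SS, 0.132 between 10SS replicates 1 and 2 alone, and 0.118 at HT. The 3 HT arrays and 10SS replicate 3 shared slide 5, and 10SS replicates 1 and 2 were on slides 2 and 3. A comparison within a slide therefore sets HT against 10SS replicate 3 only, and without that array slide and stage cannot be told apart. Calls within slide 5 rest on 1 10SS array and do not take in how it differs from the other 10SS batches. Results below are given for all 6 arrays, and then without 10SS replicate 3 and within slide 5 where these bear on them.

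A large part of the transcriptome differed between both stages. Of the 9283 transcripts tested, 1346 (14.5%) were called, with 829 (8.93%) higher at HT and 517 (5.57%) lower. By the difference of means, 458 transcripts were at least 4-fold and 123 at least 16-fold higher at HT, against 87 and 9 lower by as much. These counts take undetected levels as measured, so that some exceed the lower bounds given below. A fit on probes detected on all 6 arrays called 519 higher and 481 lower at HT. The median difference was 2.13 among those higher at HT and -1.44 among those lower, against -0.05 over all transcripts tested. HT and 10SS arrays did not overlap for 1344 of the 1346 called transcripts, and for 45.1% of all transcripts tested. The fit shares 1 estimate of the spread among the 4 stages, whose median SDs were 0.28 (8CS), 0.318 (GR), 0.601 (10SS) and 0.118 (HT), and a fit on the 6 arrays alone called 776 transcripts. Without HT replicate 1, 2 or 3 the number called was 884, 783 and 777.

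**Figure D1:**
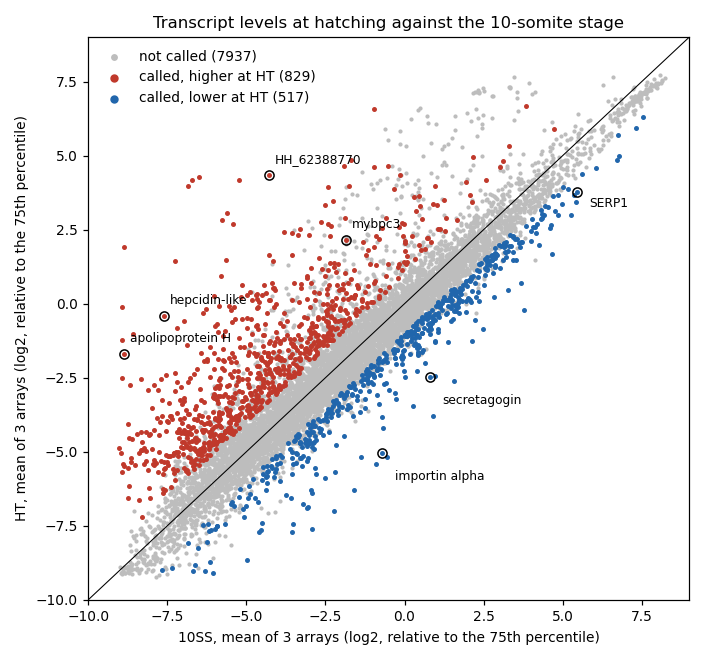
Mean level of each transcript at 10SS (x axis) and at HT (y axis), both log2 relative to the 75th percentile of the array and means of 3 arrays. Points above the diagonal line are higher at HT. The 829 transcripts called higher at HT reach further from the line than the 517 called lower, and 7 transcripts described in the text are circled (SERP1, stress-associated endoplasmic reticulum protein 1).

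Leaving out 10SS replicate 3 raised the number of called transcripts to 1773 (19.1%), of which 1189 were higher and 584 lower at HT. With and without that array 1132 transcripts were called, all in the same direction. A further 641 were called only without it and 214 only with it. Within slide 5, where HT is set against 10SS replicate 3 alone, 4476 transcripts (48.2%) were called, 2022 (21.8%) higher and 2454 (26.4%) lower at HT. Counts of named transcripts within slide 5 are to be read against these shares.

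**Figure D2:**
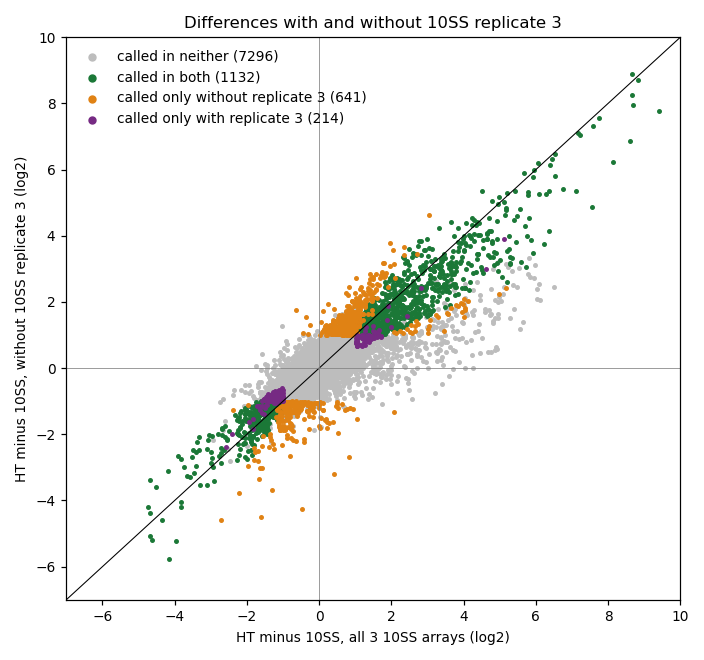
HT minus 10SS difference (log2) of each transcript with all 3 10SS arrays (x axis) and without 10SS replicate 3 (y axis), coloured by whether it was called with, without, in both or in neither. The 1132 transcripts called in both lie in the upper right and lower left quadrants, and a band of uncalled transcripts to the right of the line has large differences only with 10SS replicate 3 included.

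Part of the transcripts that rose by hatching could not be measured in earlier embryos. Of the 829 transcripts higher at HT, 821 were detected on all 3 HT arrays and 71 on none of the 10SS arrays. Of these 829, 186 (22.4%) were detected on none of the 8CS and GR arrays, which held for 5.92% of all transcripts tested. Probes were tested if their signal reached the filter on any high quality array. Those undetected at 8CS and GR could thus enter through their signal at 10SS or HT. How much of the larger share comes from this filter was not tested. Of the 517 transcripts lower at HT, 474 (91.7%) were detected on all 3 8CS arrays, against 80.9% of all transcripts tested. On all 3 HT arrays 473 of the 517 were still detected. A call lower at HT favours probes with clear signal at 10SS. The median 8CS level of the 517 was -0.501, against -2.01 over all transcripts tested. How much of their larger share at 8CS comes from this selection was not tested. For scale, single HT arrays detected 86.93% to 90.1% of all probe names and single 10SS arrays 80.15% to 86.97%. Over all 10180 probes, 104 were detected on every HT array and no 10SS array, and 7 the other way round.

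The differences are relative to the upper part of the signal of each array. The 8 spike-in probes well above background on all 12 arrays lay 0.821 lower at HT than at 10SS relative to the 75th percentile (difference of -0.821). Scaling to these spike-ins moved the median difference over all transcripts from -0.05 to 0.77, and 2743 transcripts were then called higher and 86 (0.926%) lower. Quantile normalization, under which the median difference was -0.22, gave 700 higher and 957 lower. Spike-in scaling adds the same amount to the difference of every transcript, and 86 of the 517 transcripts called lower remained called.

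Gene names were available only for transcripts that the tables of the study pair with a probe, 60 of the 1346 called and 188 of the 9283 tested. Named products of these tables were placed into 17 groups by known role. Because the study picked most of these transcripts on the same arrays, the counts describe them and are not independent evidence of their direction. Under spike-in scaling no transcript was called lower in the metabolic, cell cycle, endoplasmic reticulum, mitochondrial and peptidase groups. The decreases called below in these groups therefore depend on the scale. Counts of lower calls in the claudin, germline, channel and sense organ groups were unchanged by that scaling.

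**Figure D3:**
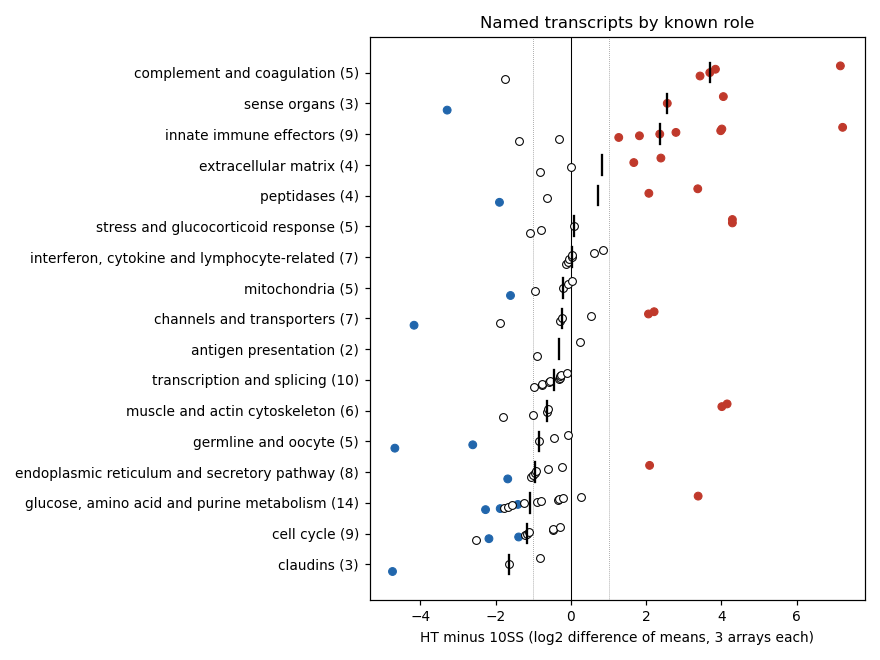
HT minus 10SS difference (log2) of the named transcripts in each of the 17 groups, with the number tested in parentheses. Filled points are called (red, higher at HT; blue, lower at HT), open points are not called, black bars are group medians and dotted lines mark a 2-fold difference. The complement and coagulation group has the highest median, 3.69, and the claudins the lowest, -1.64.

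Of the 5 transcripts related to complement and coagulation, 4 rose between 10SS and HT and none fell, with a median difference of 3.69. Apolipoprotein H (HH_90599056), a phospholipid-binding plasma glycoprotein, had levels of -8.35, -9.27 and -8.99 on the 10SS arrays and of -1.65, -1.78 and -1.71 on the HT arrays. It was well above background on no 10SS array and on every HT array, and was at least 42.8-fold higher at HT (difference 7.16 ± 0.28, SE; adjusted p = 7.86e-07). Complement component 3 (c3, HH_Contig1838), on which all complement pathways converge, had levels of -7.97, -7.01 and -6.31 at 10SS and of -3.43, -2.99 and -3.35 at HT. This was an at least 10.3-fold increase (adjusted p = 0.000107). Complement factor D (cfd, HH_Contig1932), the serine protease that activates the alternative pathway, had levels of -7.25, -6.03 and -7.64 at 10SS and of -3.71, -3.23 and -2.92 at HT, and was at least 10.8-fold higher at HT (adjusted p = 0.000251). Tissue factor 2 (HH_90604941), an initiator of blood clotting, was well above background on no 10SS array and was at least 3.79-fold higher at HT (adjusted p = 4.42e-05). Each of these 4 differences was called without 10SS replicate 3 as well, and within slide 5 they ranged from 3.05 for c3 to 7.28 for apolipoprotein H. With normexp background correction, under which 177 transcripts were called in all, the 4 differences stayed positive but none was called. The difference of tissue factor 2 was then 0.38. It was 0.6, and again not called, when outlier local backgrounds were replaced, whereas the others were called there. Across all groups, 32 of the 90 named transcripts lost their call with normexp. The other 58 include transcripts not called in the main fit, which had no call to lose. With outlier backgrounds replaced 8 lost their call and 2 gained one.

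The remaining member, tissue factor pathway inhibitor 2 (HH_90607145), a Kunitz-type protease inhibitor, was not called. Its levels were -5.93 and -5.65 on 10SS replicates 1 and 2 and -0.38 on replicate 3, against -5.32, -5.59 and -6.28 at HT. The HT levels overlapped those of the first 10SS arrays and were far below 10SS replicate 3, and the mean at GR was 0.86. The difference was -1.74 ± 1.15 (SE, adjusted p = 0.318) on all arrays and 0.06 (adjusted p = 0.917) without 10SS replicate 3. Within slide 5, against 10SS replicate 3 alone, the difference was -5.36.

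Of the 9 innate immune effectors, 7 rose and none fell, with a median difference of 2.36. Within slide 5, 5 were called higher and 1 lower, with a median of 1.25. The hepcidin-like precursor (HH_Contig2722), a peptide that regulates iron and acts against microbes in fish, had levels of -7.79, -7.11 and -7.97 at 10SS and of 0.77, -0.34 and -1.64 at HT. The HT arrays spread over more than a 4-fold range and still lay far above all 10SS arrays, so that it was at least 103-fold higher at HT (difference 7.22 ± 0.51, SE; adjusted p = 1.95e-05). The c-type lysozyme (HH_Contig2776), which cleaves bacterial cell walls, was measurable on all 6 arrays. Its levels were -4.71, -4.7 and -3.86 at 10SS and -2.08, -1.2 and -1.64 at HT, a 6.9-fold increase (adjusted p = 0.000195). Apoptosis-associated speck-like protein containing a CARD (HH_90598036), the adaptor of inflammasomes, was at least 7-fold higher at HT (difference 4.01 ± 0.41, adjusted p = 0.000154), and GTPase IMAP family member 7 (HH_Contig664) at least 9.67-fold (difference 3.98 ± 0.37, adjusted p = 0.000107). Neither was well above background on any 10SS array.

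The other increases in this group were smaller. Proline-serine-threonine phosphatase interacting protein 1 (HH_Contig1005), a cytoskeletal adaptor of immune cells in mammals, was at least 4.21-fold higher at HT. The lectin transcript clec4e (HH_Contig1769), for a pattern recognition receptor in mammals, was 3.52-fold higher, with levels from -6.33 to -4.69 at 10SS and from -4.05 to -3.37 at HT. Member 4a of the membrane-spanning 4-domains family (HH_90607472) was at least 2.4-fold higher. On these 3 transcripts 10SS replicate 3 was the 10SS array closest to HT, and within slide 5 the differences of clec4e (0.95) and HH_90607472 (0.7) were under the 2-fold limit. The signalling members were not called. TANK-binding kinase 1 (HH_Contig2917), which acts in interferon induction, was well above background on none of the 6 arrays. Lipopolysaccharide-induced TNF factor (HH_90606238) differed by -1.39 ± 0.56 (SE, adjusted p = 0.112) on all arrays and by -1.94 within slide 5.

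No member of the group of 7 interferon, cytokine and lymphocyte-related transcripts was called, and its median difference was 0.02. Within slide 5, 2 were called higher and 2 lower. The member with the smallest adjusted p, ms4a8a (HH_Contig1463), of the same family, had a difference of 0.85 (adjusted p = 0.359). It became -0.06 without 10SS replicate 3 and 2.66 within slide 5. Interferon-inducible protein 56 (HH_90607644) had levels of -6.39, -6.22 and -4.46 at 10SS and of -5.19, -5.14 and -4.91 at HT. HT was above 10SS replicates 1 and 2 and below replicate 3, whose level lay toward the GR mean of 0.4, and without replicate 3 it was called, with a difference of 1.22 (adjusted p = 0.0074), as was 1 member lower at HT. Among transcripts of antigen presentation, mhc class II antigen alpha chain (HH_38317730) did not reach the filter for testing and was well above background on none of the 6 arrays. The alpha chain of mhc class I (HH_Contig2306) differed by 0.23 ± 0.29 (SE, adjusted p = 0.613). Proteasome subunit beta type-9 (HH_Contig1979), a subunit of the immunoproteasome, was 1.85-fold lower at HT (adjusted p = 0.0233), which misses the 2-fold limit, and its HT levels of -2.13, -2.38 and -2.58 were all below the 10SS levels of -1.43, -1.36 and -1.64.

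**Figure D4:**
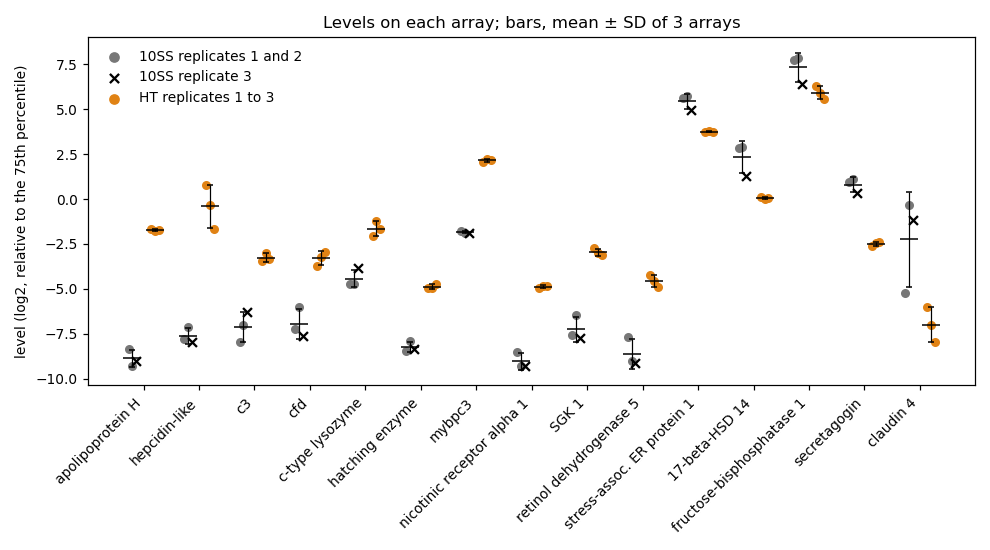
Level (log2, relative to the 75th percentile) of 15 called transcripts on each 10SS array (grey points and black cross) and each HT array (orange points), with the mean and SD of 3 arrays as bars. The first 10 transcripts are higher on every HT array than on any 10SS array and the last 5 are lower, and 10SS replicate 3 is the 10SS array nearest to HT for c3, c-type lysozyme, stress-associated ER (endoplasmic reticulum) protein 1, 17-beta-HSD 14, fructose-bisphosphatase 1 and secretagogin. SGK 1 is serum glucocorticoid regulated kinase 1 and 17-beta-HSD 14 is 17-beta-hydroxysteroid dehydrogenase 14.

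Of 4 peptidases, 2 rose and 1 fell. The hatching enzyme (HH_90604015), a protease that digests the egg envelope, had levels of -8.46, -7.91 and -8.34 at 10SS, none of them well above background. At HT its levels were -4.94, -4.96 and -4.71, at least 4.79-fold higher (difference 3.37 ± 0.29, SE; adjusted p = 5.65e-05), and within slide 5 the difference was 3.47. Carboxypeptidase polypeptide 2 (HH_Contig1950), whose label does not give the type of carboxypeptidase, rose 4.19-fold (adjusted p = 0.0022). The membrane-bound x-prolyl aminopeptidase (HH_90607525) fell by 1.9 on the log2 scale (adjusted p = 0.0112), with levels of 0.63, 0.84 and -0.26 at 10SS and of -1.06, -1.63 and -1.8 at HT. Procarboxypeptidase B (HH_Contig433) differed by -0.65 (adjusted p = 0.38), and by -1.36 (adjusted p = 0.00147) without 10SS replicate 3. Within slide 5 its difference had the other sign, 0.77.

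Of 6 muscle and actin cytoskeleton transcripts, 2 rose and none fell, and within slide 5, 2 were called higher and 1 lower. Cardiac myosin binding protein (mybpc3, HH_Contig29), a component of the thick filament, had levels of -1.77, -1.9 and -1.87 at 10SS and of 2.06, 2.24 and 2.18 at HT. It was detected on all 6 arrays, and the 16.1-fold increase (difference 4.01 ± 0.2, SE; adjusted p = 3.51e-06) was as large without 10SS replicate 3 (3.99) and within slide 5 (4.03). Cholinergic receptor nicotinic alpha polypeptide 1 (HH_90605352), the acetylcholine-binding subunit at the neuromuscular junction, was well above background on no 10SS array and was at least 4.76-fold higher at HT (difference 4.15 ± 0.27, adjusted p = 1.15e-05).

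The other muscle transcripts had lower means at HT and were not called. Capping protein muscle z-line beta (capzb, HH_90598668), which caps actin filaments, had levels of 2.78, 3.04 and 1.65 at 10SS and of 1.55, 1.6 and 1.25 at HT. Only 10SS replicate 3 approached the HT arrays, and without it the difference of -1.02 (adjusted p = 0.0906) became -1.44 (adjusted p = 0.00575) and was called. Smoothelin (HH_90600097), an actin-binding protein of smooth muscle, went from -1.8 (adjusted p = 0.0894) to -2.77 (adjusted p = 0.000199) in the same way. Myosin light polypeptide 6 (HH_Contig320) was also called lower without that array. Within slide 5 these differences were -0.19 for capzb, 0.16 for smoothelin and 0.7 for myosin light polypeptide 6, all under the 2-fold limit. Parvalbumin (HH_90987983), a calcium buffer of fast muscle, differed by -0.62 ± 0.24 (SE, adjusted p = 0.1) on all arrays and by -1.09 within slide 5.

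In the extracellular matrix group of 4, microfibrillar-associated protein 4 (HH_Contig2764) rose 5.25-fold (adjusted p = 0.00466) and elastin microfibril interfacer 2 (HH_90601338) rose 3.18-fold (adjusted p = 0.00642). Both are glycoproteins associated with elastic fibres in mammals. For the microfibrillar protein the levels were -3.82, -3.58 and -5.3 at 10SS and -1.81, -1.76 and -1.95 at HT. The direction of the other members depended on 10SS replicate 3. Transglutaminase 2 (HH_90604905), which crosslinks proteins, had levels of 4.19 and 4.18 on 10SS replicates 1 and 2 and of -1.34 on replicate 3, and the HT levels of 1.63, 1.49 and 1.44 lay between them. Its difference was -0.82 (adjusted p = 0.652) on all arrays, -2.67 (adjusted p = 9.83e-05) without 10SS replicate 3 and 2.86 within slide 5. FK506 binding protein 10 (HH_Contig1690), a collagen chaperone in mammals, had 10SS levels of 0.8, 0.84 and -2.86 and HT levels of -0.43, -0.44 and -0.33, with a difference of 0 (adjusted p = 0.999) that became -1.22 without replicate 3 and 2.45 within slide 5.

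Stress and glucocorticoid-responsive transcripts included 2 of 5 that rose, and none fell, against 3 higher and 1 lower within slide 5. Serum glucocorticoid regulated kinase 1 (HH_90600792), a kinase that controls ion transport, had levels of -7.57, -6.47 and -7.71 at 10SS and of -2.74, -2.98 and -3.14 at HT, an increase of at least 15.1-fold (adjusted p = 4.42e-05). Nuclear protein 1 (HH_90603800), a chromatin protein induced by cell stress, was at least 18.4-fold higher (adjusted p = 0.00801), with levels from -7.21 to -6.37 at 10SS and from -2.61 to -2.33 at HT. Both were well above background on 1 of the 3 10SS arrays. FK506 binding protein 5 (HH_Contig2011), a co-chaperone of the glucocorticoid receptor, was above background on 10SS replicate 3 only, where its level was -3.63 against -8.47 and -8.16 on the other 10SS arrays and a GR mean of -3.56. N-myc downstream regulated gene 1 (HH_90607492) differed by -0.79 (adjusted p = 0.453) on all arrays, by -1.85 (adjusted p = 0.000506) without 10SS replicate 3 and by 1.33 within slide 5.

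All 3 transcripts grouped under sense organs were called, 2 of them higher at HT. Retinol dehydrogenase 5 (HH_Contig1841), an enzyme of the visual cycle in the retinal pigment epithelium, was at least 5.94-fold higher (difference 4.05 ± 0.4, SE; adjusted p = 0.000146), with levels from -9.15 to -7.65 at 10SS and from -4.88 to -4.22 at HT. Eyes absent 1 (HH_90603685), a transcriptional coactivator needed for the inner ear, was at least 4.09-fold higher (adjusted p = 0.0101). Its 10SS levels were -7.86, -7.49 and -5.32, and its difference was 3.35 without 10SS replicate 3 and 0.99 within slide 5. Secretagogin (HH_90601756), a calcium-binding protein of neuroendocrine cells and retinal interneurons, fell 9.77-fold, from levels of 0.95, 1.14 and 0.32 at 10SS to -2.61, -2.45 and -2.39 at HT (adjusted p = 0.000756). Its mean was -6.87 at 8CS and -3.87 at GR, so that among the 4 stages the level was highest at 10SS.

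Metabolic transcripts changed in both directions. Of the 14 in the glucose, amino acid and purine group, 3 fell and 1 rose, with a median difference of -1.09, and 9 fell without 10SS replicate 3. Within slide 5 the count was 5 lower and 4 higher with a median of -0.52. 17-beta-hydroxysteroid dehydrogenase 14 (HH_Contig1516), an oxidoreductase acting on steroids, fell 4.81-fold, from levels of 2.85, 2.89 and 1.29 to 0.14, 0.03 and 0.05 (adjusted p = 0.00519). Diamine N-acetyltransferase 2 (HH_Contig2012) fell 3.68-fold (adjusted p = 0.0218). Fructose-bisphosphatase 1 (HH_Contig485), a key enzyme of gluconeogenesis, fell 2.66-fold, from levels of 7.73, 7.85 and 6.41 at 10SS to 6.28, 5.91 and 5.57 at HT (adjusted p = 0.0255). Here 10SS replicate 3 was barely above HT replicate 1, and without it the difference of -1.41 was -1.87. Within slide 5 the difference was -0.49.

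Glucose-6-phosphatase catalytic subunit (HH_90599141), which releases free glucose in the last step of gluconeogenesis, had levels of -0.89, -1.46 and -3.05 at 10SS and of -3.47, -3.58 and -3.73 at HT. It missed the threshold on all arrays (difference -1.79, adjusted p = 0.0656) and was called without 10SS replicate 3 (difference -2.42, adjusted p = 0.00729). Within slide 5 the difference was -0.54. Inositol monophosphatase 1 (HH_Contig2121) differed by -1.68 (adjusted p = 0.246), with HT levels that spread from 3.77 to 0.4. Adenosine kinase (HH_Contig1434) differed by -1.26 (adjusted p = 0.177). The transcript that rose was pipecolic acid oxidase (HH_90598317), an enzyme of lysine breakdown, at least 4.56-fold higher at HT (difference 3.38 ± 0.38, SE; adjusted p = 0.000279) and well above background on no 10SS array.

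In the endoplasmic reticulum and secretory pathway group of 8, 1 transcript rose and 1 fell, and 3 fell without 10SS replicate 3. The group median was -0.95 on all arrays and -0.32 within slide 5. Stress-associated endoplasmic reticulum protein 1 (HH_Contig977), a small protein of the translocation site, fell 3.2-fold from levels of 5.63, 5.74 and 4.94 to 3.76, 3.79 and 3.73 (difference -1.68 ± 0.25, SE; adjusted p = 0.00158). Wolfram syndrome 1 (HH_90605519), a membrane protein of the endoplasmic reticulum, rose 4.27-fold from levels of -2.74, -2.93 and -2.97 to -0.73, -0.78 and -0.85 (adjusted p = 0.000148). The 10SS arrays were close to each other for the latter, and the difference of 2.09 was 2.05 without 10SS replicate 3. The epsilon subunit of coatomer protein complex (HH_Contig1116), part of the coat of vesicles that return to the endoplasmic reticulum, was 1.92-fold lower (adjusted p = 0.03), just under the 2-fold limit. Differences were -1.01 (adjusted p = 0.0789) for cAMP responsive element binding protein 3-like 3 (HH_Contig2297) and -0.62 (adjusted p = 0.129) for SEC24 related gene member D (HH_90604269).

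Of the 5 mitochondrial transcripts 1 was called, lower at HT, and within slide 5, 1 was called higher and 1 lower. Solute carrier family 25 member 5 (HH_Contig2674), an exchanger of ADP and ATP, fell 3.05-fold, from levels of 1.34, 1.69 and 1.41 to 0.2, -0.33 and -0.26 (adjusted p = 0.00169). The inner membrane protein mpv17 (HH_90607499) was 1.93-fold lower (adjusted p = 0.0254), under the 2-fold limit. NADH dehydrogenase 1 alpha 8 (HH_90603061) and NADH dehydrogenase 1 beta subcomplex subunit (HH_Contig2509), of respiratory complex I, differed by -0.09 (adjusted p = 0.86) and -0.21 (adjusted p = 0.681). Both had lower signal on 10SS replicate 3 than on the other 10SS arrays.

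Among 7 channels and transporters, 2 rose and 1 fell. Solute carrier family 22 member 2 (HH_90598196), an organic cation transporter, had levels of -1.82 and -2.07 on 10SS replicates 1 and 2, of -6.75 on replicate 3, and of -7.85, -7.47 and -7.83 at HT. It was well above background on all 10SS arrays and no HT array and at least 14.5-fold lower at HT (adjusted p = 0.018). The difference of -4.17 ± 1.02 (SE) was -5.77 without 10SS replicate 3 and -0.96 within slide 5. Major facilitator superfamily domain containing 4 (HH_Contig2124), a solute transporter, was at least 4.53-fold higher at HT and chloride channel 6 (HH_90607712) at least 3.37-fold, both with an adjusted p of 0.00945. Within slide 5 their differences were 1.41 and 0.81, the latter under the 2-fold limit. ATP-binding sub-family A member 1 (HH_90598419), a cholesterol exporter, was not called (difference -1.88, adjusted p = 0.127). Its level on 10SS replicate 3, -0.04, was near the GR mean of 0.21. The other 10SS arrays were far from that level, at -3.5 and -3.66. Its difference within slide 5 was -4.24. Solute carrier family 16 member (HH_Contig2928) and chloride intracellular channel 1 (HH_90607394) differed by 0.52 and -0.3, each with an adjusted p of 0.595.

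Claudins, the membrane proteins of tight junctions, numbered 3, of which 1 fell. Claudin 4 (HH_Contig106) had levels of -5.24, -0.33 and -1.16 at 10SS and of -6.02, -7 and -7.96 at HT, at least 23.7-fold lower (difference -4.75 ± 1.03, SE; adjusted p = 0.0105). 10SS replicate 1 was close to HT replicate 1, and the mean level was 6.13 at 8CS and 3.2 at GR. Claudin 15 (HH_90605076) had levels of -1, -1.16 and -5.21 at 10SS and of -4.38, -3.98 and -3.95 at HT. Its difference was -1.64 (adjusted p = 0.246) on all arrays, -3.02 (adjusted p = 0.000759) without 10SS replicate 3 and 1.11 within slide 5. Claudin 17 (HH_Contig2438) differed by -0.81 (adjusted p = 0.38) and was well above background on no HT array.

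Of the 5 germline and oocyte transcripts 2 fell and none rose. The median difference was -0.845 on all arrays and -1.42 within slide 5, with undetected members included. Linker histone H1M (HH_Contig1140), the oocyte form of histone H1, had a mean level of 6.55 at 8CS and 3.92 at GR, levels of -4.52, 0.68 and -0.99 at 10SS and of -5.11, -6.47 and -7.3 at HT. It was at least 25.7-fold lower at HT than at 10SS (adjusted p = 0.0126), although 10SS replicate 1 was close to HT replicate 1. A protein with zona pellucida-like domain (HH_Contig561), a domain of egg envelope proteins, fell 6.09-fold (adjusted p = 0.0105), with levels of -3.36, -2.65 and -0.47 at 10SS and of -4.68, -4.79 and -4.83 at HT. Tudor domain containing 3 (HH_90606448) differed by -0.84 (adjusted p = 0.109), FK506 binding protein 6 (HH_Contig1209), which acts in meiosis in mammals, by -0.08 (adjusted p = 0.892), and the moloney leukemia virus 10-like homolog (HH_Contig2854) was well above background on none of the 6 arrays.

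In the cell cycle group 2 of 9 fell and none rose. The median difference was -1.18 on all arrays and -1.72 within slide 5, with undetected members included. Replication protein A2 (HH_193888862), a subunit of the complex that binds single-stranded DNA, fell 4.52-fold (adjusted p = 0.0334). Its mean level was 2.88 at 8CS and 0.79 at GR, its 10SS levels were -5.24, -3.5 and -1.94, and its HT levels were -5.68, -5.76 and -5.78. Cyclin-dependent kinase inhibitor 3 (HH_94963222), a phosphatase of the cyclin-dependent kinases, fell 2.62-fold from levels of 1.45, 1.44 and 0.67 to -0.18, -0.2 and -0.23 (adjusted p = 0.00443). F-box protein 5 (HH_90606170), an inhibitor of the anaphase-promoting complex, differed by -1.23 (adjusted p = 0.0651). G-protein signalling modulator 2 (HH_193890291) was well above background on none of the 6 arrays.

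None of the 10 transcription and splicing transcripts was called, and their median difference was -0.44. The smallest adjusted p belonged to LUC7-like 3 (HH_90606429), a splicing factor, whose levels were -0.85, -0.85 and 0.51 at 10SS and -1.23, -1.4 and -1.46 at HT (difference -0.97, adjusted p = 0.0712). G patch domain and KOW motifs (HH_90600327) differed by -0.77 (adjusted p = 0.148) and the TAF1 RNA polymerase TATA box binding protein-associated factor (HH_90605184) by -0.78 (adjusted p = 0.23). On all 3 probes 10SS replicate 3 was the highest 10SS array, and the median of the group was -0.03 without it and -1.53 within slide 5, where 8 of 10 were called lower.

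The study had listed transcripts up-regulated in a single stage on these same arrays, so that the following counts are descriptive. All 58 transcripts of its HT list were higher at HT than at 10SS, with a median difference of 3.35, and 57 were called without 10SS replicate 3. The median level of the HT list was -7.54, -7.1 and -6.34 on the 10SS arrays and -4.06, -3.95 and -3.92 on the HT arrays. Of the 44 transcripts of the 10SS list, 9 were called lower at HT on the 6 arrays, against 5.57% of all transcripts tested. Without 10SS replicate 3, 35 were called lower, against 584 of all 9283. The median level of the 10SS list was 0.71 and 0.84 on 10SS replicates 1 and 2, -1.15 on replicate 3, and -1.15, -1.32 and -1.36 on the HT arrays. 10SS replicate 3 was thus at the level of the HT arrays on this list. It also lay between the GR arrays, at -2.74, -2.49 and -2.02, and the other 10SS arrays. Under spike-in scaling 2 of the 44 were called lower, and within slide 5 the list had 6 lower, 11 higher and a median difference of 0.37.

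Of the 42 transcripts of the GR list 1 was called, lower at HT, against 14.5% called in either direction among all transcripts tested. The median level of the GR list was -3.65 and -3.74 on 10SS replicates 1 and 2, -1.61 on replicate 3, between -3.56 and -3.52 on the HT arrays and between 0.22 and 0.37 on the GR arrays. The median difference of this list was -0.7 on all arrays, 0.1 without 10SS replicate 3 and -2.02 within slide 5. Of the 160 transcripts of the 8CS list 23 fell further between 10SS and HT and 3 rose. Among all those tested, 5.57% were called lower and 8.93% higher. The median difference of the 8CS list was -0.56, and -0.25 without 10SS replicate 3. Under spike-in scaling this median turned to 0.26, below the 0.77 over all transcripts, with 22 called higher and 9 lower. Over all 9283 transcripts that scaling called 2743 higher and 86 (0.926%) lower. Within slide 5 the median difference of the 8CS list was -1.29.

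**Figure D5:**
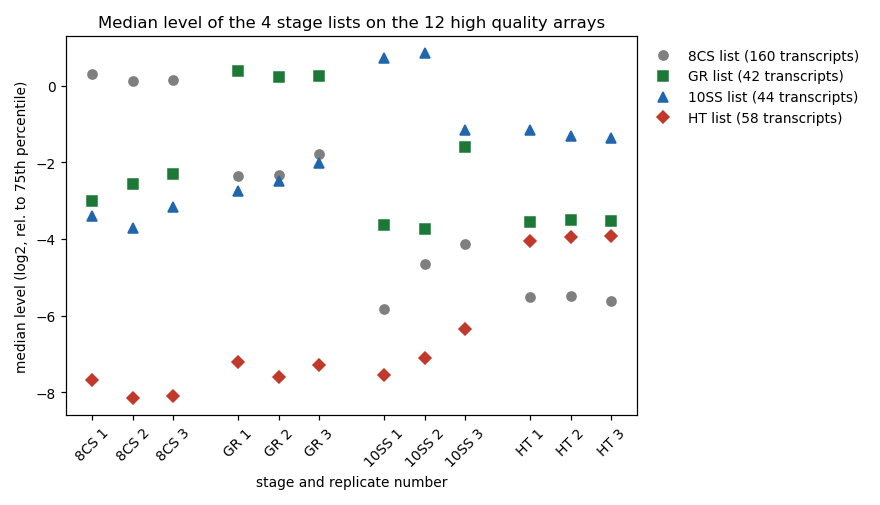
Median level (log2, relative to the 75th percentile) of the study's 8CS, GR, 10SS and HT lists on each of the 12 high quality arrays, in the order of stage and replicate number. The 10SS list lies at 0.71 and 0.84 on 10SS replicates 1 and 2 and at -1.15 on replicate 3, where the GR list (-1.61) is higher than on the other 10SS arrays.

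The transcripts with the largest changes among those measurable on all 6 arrays were mostly without a name in the tables used here. The 5 largest increases ranged from 92.8-fold to 407-fold. HH_Contig779 had levels of -5.5, -4.88 and -6.43 at 10SS and of 2.8, 3.23 and 3.15 at HT (407-fold, difference 8.67 ± 1.56, SE; adjusted p = 0.00436). HH_62388770 rose from levels of -4.62, -4.48 and -3.81 to 4.19, 4.61 and 4.25 (403-fold, adjusted p = 0.000195). For HH_Contig2296 the levels were -1.61, -1.61 and -1.87 at 10SS and 4.99, 4.94 and 4.61 at HT (93.4-fold, adjusted p = 7.39e-06). HH_62388603 rose 92.8-fold (adjusted p = 0.00336). For these 4 the groups were far apart relative to the spread in each. HH_Contig1363 had levels of 1.66 and 1.75 on 10SS replicates 1 and 2, of -6.36 on replicate 3, and of 6.48, 6.73 and 6.5 at HT. Its difference of 7.55 (188-fold, adjusted p = 0.0331) was 4.86 (adjusted p = 0.0394) without replicate 3.

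The 5 largest decreases ranged from 18.2-fold to 25.6-fold. HH_Contig1501 fell from levels of 1.16, 1.43 and 0.1 to -3.45, -3.89 and -4.01 (25.6-fold, difference -4.68 ± 0.35, SE; adjusted p = 3.45e-05). HH_Contig1083 fell 24.7-fold (adjusted p = 0.000234), HH_90599067 22.7-fold (adjusted p = 0.0023) and HH_Contig569 18.2-fold (adjusted p = 0.00305). The only one with a name, importin alpha (HH_Contig2565), a nuclear import receptor, fell 20.3-fold from levels of -1.15, 0.25 and -1.23 to -4.8, -4.91 and -5.43 (adjusted p = 0.00017). It had a mean level of 5.61 at 8CS and 2.21 at GR. HH_90599067 was of a different kind, with a mean of -6.65 at 8CS, -0.95 at GR, and levels of -1.78, -1.83 and 0.94 at 10SS and of -5.34, -5.31 and -5.54 at HT.

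Among transcripts detected on all 6 arrays, the 3 in each direction that moved most without 10SS replicate 3 are described here. On each of them that array lay nearer to the GR mean than 10SS replicates 1 and 2 did. HH_Contig136 had levels of 6.49 and 6.64 on 10SS replicates 1 and 2, of -6.46 on replicate 3, and of 7.2, 7.15 and 7.07 at HT, with a GR mean of -6.27. Its difference of 4.92 ± 2.95 (SE, adjusted p = 0.273) was 0.57 (adjusted p = 0.8) without replicate 3. HH_Contig21 and HH_Contig1267 showed the same pattern, with differences of 4.86 and 4.26 that became 0.55 and -0.01. These 3 probes were each detected on only 1 of the 3 GR arrays, so that their GR means include undetected levels. In the other direction, HH_90603035 had levels of -5.44 and -5.23 on 10SS replicates 1 and 2, of 1.84 on replicate 3, and of -3.73, -3.54 and -3.49 at HT, with a GR mean of 1.27. Its difference was -0.64 (adjusted p = 0.803) on all arrays and 1.75 (adjusted p = 0.0291) without replicate 3. HH_Contig374 went from -0.91 to 0.82, and the third was tissue factor pathway inhibitor 2, described above. Whether 10SS replicate 3 held younger embryos than its label states was not tested.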

How the data were processed

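Total RNA of whole embryos was labelled with Cy3 and hybridised to a custom 1-colour Agilent array of 10180 probe names, most printed in 4 copies. Feature Extraction files deposited by the authors (version 10.7.1.1 in the files, 7.2 in the submitters' processing notes) hold background-subtracted spot intensity on a linear scale, and a deposited table, used as an alternative, holds log2 values relative to the 75th percentile and the median of each probe. Groups came from the sample labels. Here control and outlier spots were dropped, the 75th percentile of each array was subtracted from log2 processed intensity, and spots of a probe name were averaged. Between 80.2% and 90.1% of the names were well above background (over 0.5 of the spots marked so) on the 6 arrays. Arrays carry no depth, and their number, 3 per stage, limits the precision.

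Probes that reached the 20th percentile on any of the 12 high quality arrays were kept (91.2%). Stage means were fitted with lmFit and eBayes of limma 3.58.1 (R 4.3.3) with Benjamini-Hochberg adjustment, without a replicate block. The fit was tested on simulated data, but no result of that test is given here. The low quality arrays entered only 1 alternative.

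Members, lists and groups were chosen with earlier results of these data known. Named were, per group, up to 4 called members with the largest difference and up to 3 not called with the smallest adjusted p, then the 5 largest changes in each direction among called, non-overlapping probes well above background on all 6 arrays, and, among probes well above background on all 6 arrays, the 3 in each direction that moved most without 10SS replicate 3. The other members named (HH_Contig1005, HH_Contig1769, HH_90607472, HH_Contig320, HH_38317730) were added after their values were seen. One transcript that the rule names is not reported here. Alternatives were other normalizations, background corrections, filters, sets of arrays, variance models and blocks, and leaving out each array.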

Additional observations from a re-analysis of the deposited data

How the results depend on the processing

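Of 2195 comparisons between a named transcript and 1 of 25 alternatives, 1983 kept their side of the threshold, 93 lost the call, 111 gained one and 8 changed direction with a call on at least 1 side. Another 73 changed sign without a call on either side, 15 of them under spike-in scaling and 19 with slide as a block. The total called, higher and lower (1346, 829 and 517) became 2829, 2743 and 86 with spike-in scaling, 177, 116 and 61 with normexp background correction (1151 called when outlier local backgrounds were replaced), 776, 501 and 275 with only the 6 arrays of both stages, 2209, 1407 and 802 with array weights (0.0321 for 10SS replicate 3, an estimate that stopped before convergence), 4476, 2022 and 2454 with slide as a fixed block, which is HT against 10SS replicate 3 alone, 4103, 1932 and 2171 with slide as a random block (correlation 0.84), and 545, 458 and 87 at a 4-fold limit. Higher calls numbered 519 among probes well above background on all 6 arrays, and lower calls numbered 957 with quantile normalization and 983 in the deposited table of log2 values. The share of higher calls, 61.6%, was 42.2% and 41.5% in these last alternatives, 97% with spike-in scaling, and 45.2% and 47.1% with slide as a fixed and random block. Leaving out 1 array at a time gave 777 to 1773 called, 502 to 1189 higher and 264 to 758 lower, with 884, 783 and 777 called without HT replicate 1, 2 and 3. The cause of these changes was not tested.

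Deviations of same-numbered 10SS and HT arrays from their stage means correlated at 0.1, -0.016 and 0.0466. Because 10SS replicate 3 dominates the 10SS deviations, these values cannot decide whether the replicate numbers of the labels pair the samples. With the replicate block, 1381 were called (871 higher, 510 lower), 1278 of them shared with the fit without it.

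Directions turned for transglutaminase 2 (2.86 with slide as a fixed and 2.2 as a random block), FK506 binding protein 10 (-1.23 with array weights, -1.22 to 0.63 with 1 array left out, the lowest without 10SS replicate 3), N-myc downstream regulated gene 1 (1.33) and claudin 15 (1.11) with slide as a fixed block, and HH_90603035 (1.68 with array weights, -1.89 to 1.75 with 1 array left out, the highest without 10SS replicate 3).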
